A study of Rattus norvegicus with 15 samples.

Results

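The Nr4a family of orphan nuclear receptors was examined in RNA sequencing counts from rats given vagus nerve stimulation (VNS). The vagus is a cranial nerve that links the viscera with the brainstem. Members were found by matching the RefSeq transcript records of the count files to the rat symbols Nr4a1, Nr4a2 and Nr4a3. Each symbol had 1 record, so 3 of 18278 records belong to the family. The rule used names and no measured value. Nr4a1 (NM_024388) lies on chromosome 7 from 140713169 to 140721072 on the plus strand in build rn5, with 7 exons that sum to 2490 bases. Nr4a2 (NM_019328) lies on chromosome 3 from 48183783 to 48189254 on the minus strand, with 7 exons of 2570 bases in all. Nr4a3 (NM_031628) lies on chromosome 5 from 68298772 to 68338610 on the plus strand, with 8 exons of 4396 bases in all. No exon of any member overlapped an exon of another record on either strand.

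The hippocampus was represented by 4 libraries from VNS rats and 3 from control rats. Stimulation through an implant lasted 30 min a day over 4 days in a row, and controls were implanted with a sham device. Both groups behind the hippocampal libraries also took a novelty preference task of 10 min from day 2 to day 4. Brains were taken directly after the last stimulation. For the cortex there were 4 VNS and 4 control libraries, and the labels do not say whether those rats performed the task. The labels give no strain, sex or age, and do not say whether each library is a separate rat, so p-values measure the spread between these libraries, which may be technical.

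Nr4a receptors are transcription factors whose ligand pocket is filled by the protein's own side chains, so their activity is set mainly by how much of them a cell makes. They bind DNA as monomers at a motif named NBRE or as dimers at longer elements, and Nr4a1 and Nr4a2 can also pair with retinoid X receptors. In neurons they are immediate early genes, transcribed within minutes of activity without new protein synthesis, largely through CREB and its coactivators and through MEF2 and SRF. In mice, Nr4a function in the hippocampus is needed for long-term memory, and Nr4a2 is needed for the making of midbrain dopamine neurons.

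The promoters of Nr4a1 and Nr4a2 are shown because CREB acts on this family through short cAMP response elements (CRE). The sequences come from RefSeq in build GRCr8, not the rn5 build of the counts, and run from 250 bases before to 50 bases after an annotated transcript start. The Nr4a1 window is chr7:134259888-134260187 on the plus strand and the Nr4a2 window chr3:62104838-62105137 on the minus strand. Both genes also have annotated transcript starts farther upstream, which were not examined. The promoter of Nr4a3 was not analysed here. Capitals mark the short CRE TGACG or its reverse complement CGTCA.
Nr4a1: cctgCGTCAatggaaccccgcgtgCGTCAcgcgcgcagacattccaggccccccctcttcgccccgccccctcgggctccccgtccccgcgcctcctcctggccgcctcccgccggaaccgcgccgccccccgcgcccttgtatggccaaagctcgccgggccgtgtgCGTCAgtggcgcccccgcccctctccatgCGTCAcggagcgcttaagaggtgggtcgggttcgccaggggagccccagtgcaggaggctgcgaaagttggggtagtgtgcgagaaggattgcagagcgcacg
Nr4a2: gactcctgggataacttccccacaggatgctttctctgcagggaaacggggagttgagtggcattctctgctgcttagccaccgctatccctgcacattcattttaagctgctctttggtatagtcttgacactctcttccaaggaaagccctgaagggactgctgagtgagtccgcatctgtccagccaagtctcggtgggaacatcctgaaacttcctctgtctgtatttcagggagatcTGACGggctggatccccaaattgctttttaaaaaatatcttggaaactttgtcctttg
The Nr4a1 window held 4 short CREs, whose first printed bases lie at -246, -226, -82 and -53 from the start. Of 33469 RefSeq promoter windows of this length, 0.236% held 4 or more. The Nr4a2 window held 1, at -8, and 21.2% of all windows held at least 1. Neither window held the full palindrome TGACGTCA (in 1.83% of windows) or the NBRE motif AAAGGTCA (in 1.43%), each searched on both strands. The full palindrome contains the short CRE.

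Hippocampal libraries held 16728486 to 51463555 counts and cortex libraries 329130 to 435296. Levels are given as CPM, which sets each count against its library's TMM-scaled total, and as CPM per kb of exon where members are compared with each other. The hippocampal libraries were first checked against markers of forebrain excitatory neurons, of which 8 of 9 matched a record. Their summed level was 5226, 3349, 4729 and 4293 CPM in VNS libraries 1 to 4, and 635.3, 220.4 and 4010 CPM in control libraries 1, 2 and 3. Slc17a6, the glutamate transporter of most thalamic and brainstem neurons, was at 10.0 to 66.8 CPM in the VNS libraries, and at 379.7, 347.4 and 36.9 CPM in the 3 controls. The 5 thalamic and brainstem markers matched, Slc17a6 among them, summed to 22.5 to 141 CPM in the VNS libraries and to 1252, 500.5 and 54.1 CPM in the controls. Control libraries 1 and 2 thus went against the tissue label in both sums. Of the 5 thalamic and brainstem markers, 3 were above the other 5 libraries in both. Markers of claustrum, deep layer and subiculum neurons showed no such drop. They summed to 220.6, 288.6 and 302.1 CPM in control libraries 1 to 3 and to 236.9 to 310.7 CPM in VNS libraries. The hippocampal fold changes of the members are given with and without control libraries 1 and 2.

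In the hippocampus all 3 members were low in control libraries 1 and 2 and high in control library 3 and in every VNS library. None passed in the comparison of VNS with control rats, which asked whether transcript levels differed directly after the last of 4 daily sessions. An effect of the last session cannot be told apart from one of all 4 days. Nr4a1, the founding member of the family, also called Nur77 or NGFI-B, had 32.2, 36.6, 28.5 and 54.6 CPM in VNS libraries 1 to 4. It had 12.9, 9.33 and 76.8 CPM in control libraries 1 to 3. The 4 VNS values lay between the controls, above control libraries 1 and 2 and below control library 3. The group means were 38.0 ± 11.6 CPM after VNS and 33.0 ± 37.9 CPM in controls (SD, n = 4 and 3).

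Nr4a2, also called Nurr1, had 36.6, 65.5, 38.0 and 77.6 CPM in VNS libraries 1 to 4. It had 8.96, 4.09 and 61.1 CPM in the 3 controls. VNS libraries 2 and 4 exceeded every control and VNS libraries 1 and 3 did not. The means were 54.4 ± 20.4 CPM after VNS and 24.7 ± 31.6 CPM in controls (SD, n = 4 and 3).

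Nr4a3, also called NOR-1, the member with the longest transcript record, had 68.4, 56.4, 93.9 and 64.3 CPM in VNS libraries 1 to 4. It had 5.72, 2.75 and 73.8 CPM in the 3 controls. VNS library 3 was above control library 3 and the other VNS libraries were below it. The means were 70.8 ± 16.2 CPM after VNS and 27.4 ± 40.2 CPM in controls (SD, n = 4 and 3). The highest control exceeded the lowest by 26.8 times for Nr4a3, by 14.9 times for Nr4a2 and by 8.23 times for Nr4a1. Among VNS libraries the same ratios were 1.67, 2.12 and 1.92. The VNS libraries thus spread far less than the controls for each member. The controls include control libraries 1 and 2, which were low in forebrain markers. How often controls spread more over all records was not examined.

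**Figure D1:**
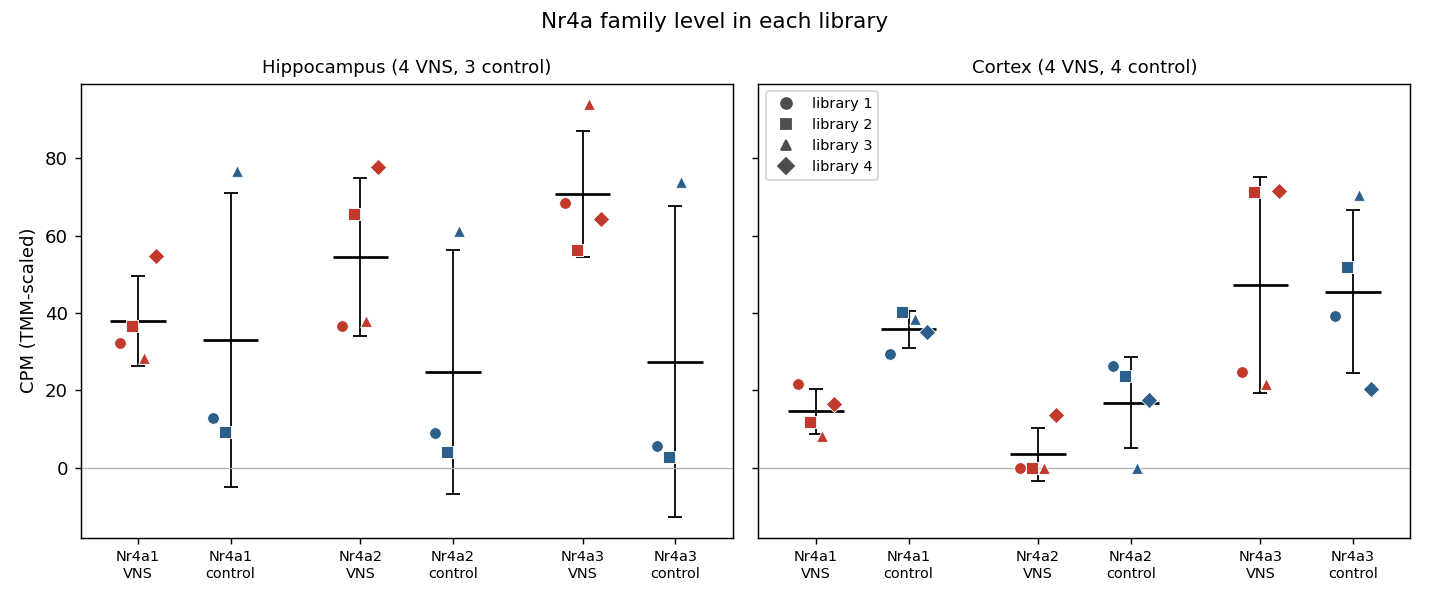
CPM of each member in hippocampus (left) and cortex (right), with VNS libraries in red and controls in blue, one marker shape per library number, and bars for the mean and SD. In the hippocampus control libraries 1 and 2 lie at 12.9 CPM or less for every member, and control library 3 lies among or above the VNS libraries.

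The hippocampal log2 fold change, VNS minus control, was 1.36 for Nr4a3 (SE 0.97, adjusted p = 0.52, edgeR quasi-likelihood test with Benjamini-Hochberg adjustment). It was 1.14 for Nr4a2 (SE 0.82, adjusted p = 0.52) and 0.21 for Nr4a1 (SE 0.67, adjusted p = 0.90) in the same fit. With edgeR 0% of 12728 records passed, while 1537 (12.1%) had an unadjusted p under 0.05 and DESeq2 called 17 and limma-voom 0. The groups overlapped for all 3 members, and were free of overlap for 9.28% of records. A two-sided exact permutation test of mean log2 CPM gave p = 0.11 for Nr4a2, 0.11 for Nr4a3 and 0.37 for Nr4a1, where the smallest p that 35 splits allow is 0.029. In a bulk sample, fewer cells of a type and less RNA per cell cannot be told apart.

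The call for each member depended on which controls were used. Without control library 3, all 3 members passed, with log2 fold changes of 4.06 for Nr4a3 (adjusted p = 0.00098), 3.07 for Nr4a2 (adjusted p = 0.0066) and 1.78 for Nr4a1 (adjusted p = 0.0098). In that fit 1377 of 12931 records passed, and its controls are the libraries with little forebrain RNA. Without control libraries 1 and 2, the values were -0.08 for Nr4a3, -0.17 for Nr4a2 and -1.01 for Nr4a1, none of which passed (adjusted p = 1 for each). Its only control library has to be taken to vary as the VNS libraries do. The direction for Nr4a1 also turned without control library 1 (-0.17), control library 2 (-0.23) or VNS library 4 (-0.02). With limma-voom the values were 2.71 for Nr4a3, 2.07 for Nr4a2 and 0.89 for Nr4a1, and none passed (adjusted p = 0.33, 0.33 and 0.51).

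**Figure D2:**
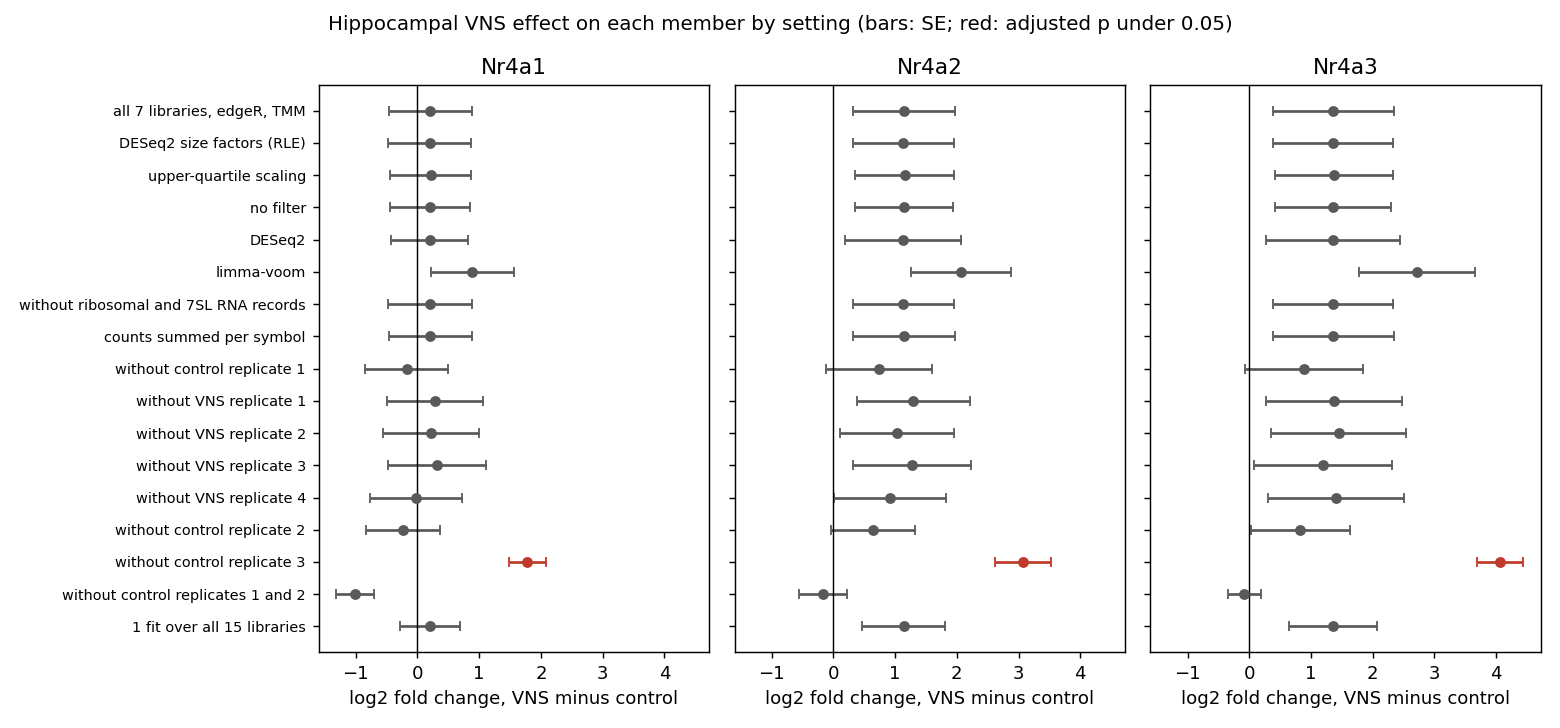
Log2 fold change of each member in the hippocampus, VNS minus control, with its SE, under every setting tried. The only red points, with an adjusted p under 0.05, are those without control library 3, at 1.78 for Nr4a1, 3.07 for Nr4a2 and 4.06 for Nr4a3.

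Against control library 3 alone, Nr4a1 had the lowest ratios of the members. Its level in VNS libraries 1 to 4 was 0.42, 0.48, 0.37 and 0.71 of that in control library 3. For Nr4a2 these ratios were 0.60, 1.07, 0.62 and 1.27, and for Nr4a3 0.93, 0.76, 1.27 and 0.87. Nr4a1 was thus below control library 3 in 4 of 4 VNS libraries, as were 13.3% of all records tested. The fit without control libraries 1 and 2 makes this comparison. There Nr4a1 had an SE of 0.30 and an unadjusted p of 0.0085 and did not pass after adjustment over all records (adjusted p = 1, edgeR).

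Control libraries 1 and 2 were both below each of the other 5 libraries for 3 of 3 members, against 18.3% of all records and 8 of 8 tested forebrain excitatory markers. Control library 3 exceeded control libraries 1 and 2 by 6.31 and 18.2 times in the summed forebrain marker level. The same ratios were 12.9 and 26.8 for Nr4a3, 6.82 and 14.9 for Nr4a2, and 5.94 and 8.23 for Nr4a1. Among the members these ratios were largest for Nr4a3 and smallest for Nr4a1. Single forebrain markers differed from their sum. In control libraries 1 to 3 Slc17a7 was at 237.2, 4.09 and 1103 CPM, and Neurod6 at 0.65, 1.05 and 81.4 CPM. The part of tissue content in the values of the members was not tested. Ribosomal and 7SL RNA records held 17.2%, 39.4%, 74.3% and 40.4% of counts in VNS libraries 1 to 4, and 18.5%, 19.02% and 27.9% in the 3 controls. Leaving those records out gave 1.35 for Nr4a3, 1.14 for Nr4a2 and 0.20 for Nr4a1 as the log2 fold change.

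Levels were compared between members per kb of exon. After VNS the hippocampal level was 21.2 ± 7.94 CPM per kb for Nr4a2, 16.1 ± 3.69 for Nr4a3 and 15.3 ± 4.65 for Nr4a1 (SD, n = 4). Nr4a2 was above Nr4a1 in 4 of 4 VNS libraries, whereas Nr4a3 was above Nr4a2 in 2 of 4 and above Nr4a1 in 2 of 4. In controls the order was Nr4a1 at 13.3 ± 15.2, Nr4a2 at 9.62 ± 12.3 and Nr4a3 at 6.24 ± 9.14 CPM per kb (SD, n = 3). The SDs exceed the means, and this order held within each of the 3 control libraries. No test was made of these orders.

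The make-up of the family also differed between libraries. Nr4a3 made up 36.4%, 24.2%, 44.9% and 21.9% of the family's CPM per kb in VNS libraries 1 to 4, and 13.1%, 10.5% and 23.5% in control libraries 1 to 3. Nr4a1 made up 30.3%, 27.7%, 24.0% and 32.9% in the VNS libraries, and 52.0%, 62.8% and 43.2% in the controls. These shares do not depend on library scaling. For Nr4a1 every VNS library lay below every control library, control library 3 included. How often shares within other gene families separate the groups was not examined. The shares of a library make up a whole, so a lower share of Nr4a1 goes with higher shares of the other members. For Nr4a3 VNS library 4 lay below control library 3, so the groups overlapped. The share of Nr4a2 was 33.3%, 48.1%, 31.1% and 45.2% in the VNS libraries and 34.96%, 26.7% and 33.3% in the controls, which also overlap. The family sum was 42.7, 53.0, 47.6 and 66.8 CPM per kb in VNS libraries 1 to 4, against 9.97, 5.97 and 71.4 in the 3 controls. No test was made of these sums and shares. The members were chosen by name, with earlier results of these data known.

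**Figure D3:**
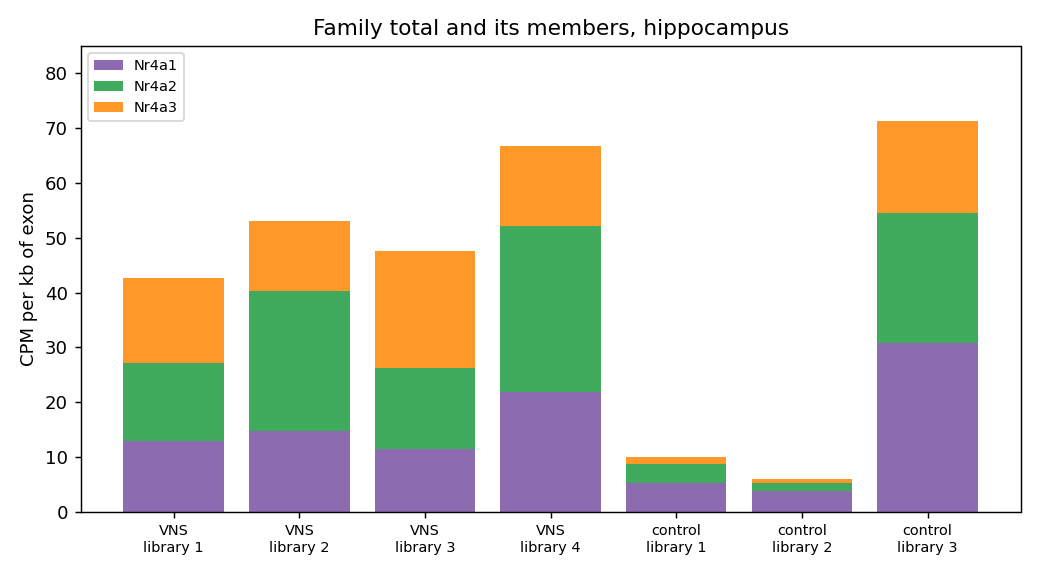
Stacked CPM per kb of exon of Nr4a1, Nr4a2 and Nr4a3 in each hippocampal library, VNS libraries on the left. The whole family stands at 5.97 to 9.97 CPM per kb in control libraries 1 and 2. It stands at 42.7 to 71.4 in the other 5 libraries. Nr4a1 forms a larger part of the bar in each control than in any VNS library, which was not tested.

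The genes whose hippocampal profile was nearest to each member were found from the root mean square distance between log2 CPM values, each centred on its mean over the 7 libraries. This was done over 10736 records with a mean of 1 CPM or more. Nearest to Nr4a1 was Junb, an AP-1 transcription factor and immediate early gene, at a distance of 0.31 against a median of 1.03 over all records. Junb had 24.7, 32.4, 33.1 and 51.5 CPM in VNS libraries 1 to 4 and 16.4, 13.9 and 69.9 CPM in the 3 controls. As for Nr4a1, every VNS value lay between the low and the high controls. The next were Neurl1b, Ephx4, Pcsk5, a proprotein convertase, and Wnt9a, a secreted signal, at 0.32 to 0.36.

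Nearest to Nr4a2 was Egr4, a zinc finger immediate early transcription factor, at 0.29 against a median of 1.51. Egr4 had 12.2, 14.4, 14.2 and 22.3 CPM in the VNS libraries and 2.44, 1.16 and 26.5 CPM in the controls. Pdyn, which encodes the prodynorphin neuropeptide precursor, Arc, which acts in synaptic plasticity, Chrm4, a muscarinic receptor, and Synpo, which encodes an actin-binding protein of dendritic spines, followed at 0.43 to 0.44. Arc had 83.7 to 186 CPM in the VNS libraries and 25.6, 15.4 and 245.1 CPM in the controls.

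Nearest to Nr4a3 was Smpdl3b, a lipid phosphodiesterase, at 0.16, then Egr3, another activity-induced zinc finger factor, at 0.24, against a median of 1.91. Egr3 had 25.2, 22.2, 46.8 and 32.2 CPM in the VNS libraries and 1.67, 1.01 and 27.0 CPM in the controls. Gna14, a G protein subunit, Frzb, a secreted Wnt antagonist, and Kcnv1, a potassium channel subunit, followed at 0.26 to 0.33. The members were not each other's nearest neighbours. The distance was 0.65 between Nr4a1 and Nr4a2, 0.69 between Nr4a2 and Nr4a3 and 1.13 between Nr4a1 and Nr4a3. The last is above the median of 1.03 from Nr4a1 to all records and below the median of 1.91 from Nr4a3. All these profiles share the drop in control libraries 1 and 2 and the depth of the same 7 libraries, so nearness is a description of these libraries.

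**Figure D4:**
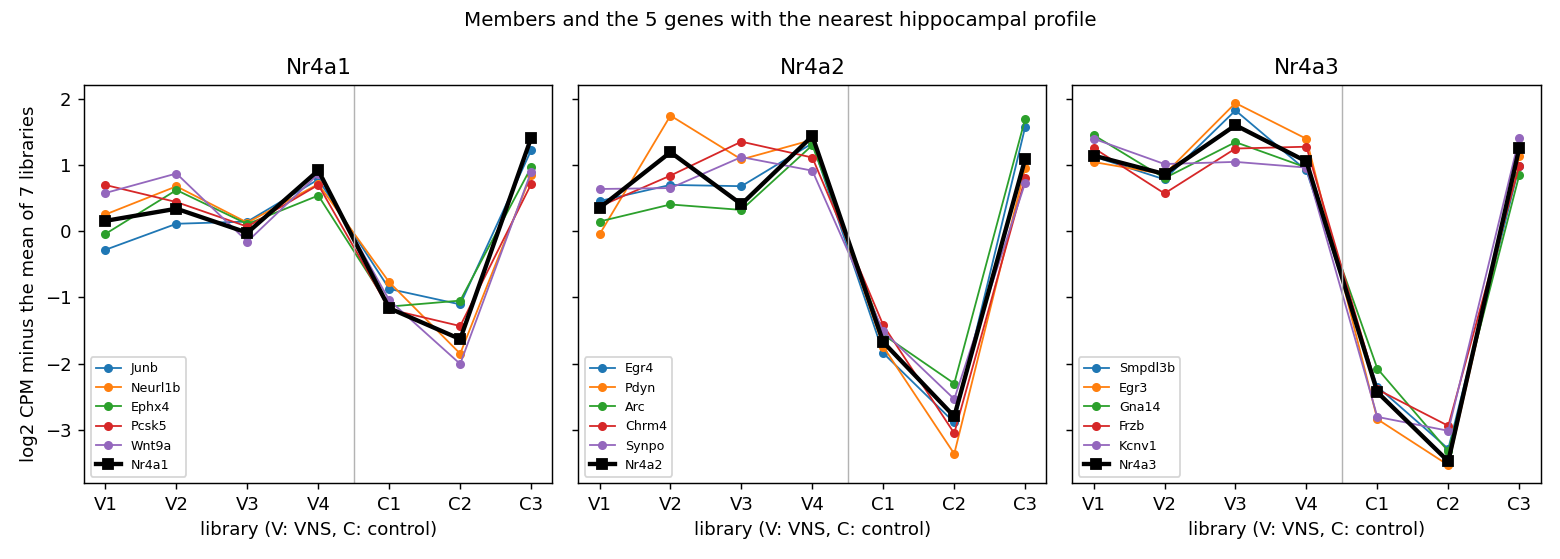
Log2 CPM of each member (black) and of its 5 nearest genes, each minus its own mean over the 7 hippocampal libraries, with lines drawn to guide the eye. All profiles fall in control libraries 1 and 2, and Nr4a1 peaks in control library 3.

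Of 29 tested records of other rapid activity-induced genes, 0 passed in the hippocampus in either direction, and the median log2 fold change was 0.02, against -0.01 over all records. Fos, an AP-1 subunit, had a value of -0.81 (SE 0.37, adjusted p = 0.40) with 8.03 ± 3.58 CPM after VNS and 14.1 ± 2.07 CPM in controls (SD, n = 4 and 3). Trib1, a pseudokinase, had a value of -0.72 (SE 0.29, adjusted p = 0.40). All 4 VNS libraries lay below control library 3 for 17 of the 29 (58.6%), as for Nr4a1, against 13.3% of all records tested. Control libraries 1 and 2 lay below the other 5 for 13 of the 29 (44.8%), as for all 3 Nr4a members, against 18.3% of all records tested. Fos was not among these 13, with 14.9, 11.72 and 15.6 CPM in the 3 controls. Its VNS values of 3.54, 11.65, 6.91 and 10.03 CPM all lay below every control, VNS library 2 by a small margin. Groups were free of overlap, in either direction, for 9.28% of records.

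Of the genes that act upstream of the family, 14 records of 14 symbols were tested and 0 passed. Their median log2 fold change was 0.45, with 11 above 0 and 3 below, where 49.2% of all records were above 0 and 50.8% below. For 7 of the 14 (50%) control libraries 1 and 2 lay below the other 5 libraries, against 18.3% of all records tested. Crtc1, a CREB coactivator that moves to the nucleus on calcium and cAMP signals, had a value of 1.03 (SE 0.35, adjusted p = 0.40). It had 72.5, 63.4, 113 and 89.4 CPM in the VNS libraries and 27.7, 29.4 and 66.5 CPM in the controls. Mef2d, an activity-regulated transcription factor, had a value of 0.62 (SE 0.20, adjusted p = 0.40). It had 76.6 to 102.5 CPM in the VNS libraries and 47.4, 45.0 and 72.2 CPM in the controls. For both genes control libraries 1 and 2 again held the lowest values.

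Among described targets, 6 records of 5 dopamine neuron genes under Nr4a2 were tested, 0 passed, and 6 of 6 had negative values (median log2 fold change -1.56, against -0.01 over all records). Th, the rate-limiting enzyme of dopamine synthesis, had 0.43, 1.07, 1.02 and 0.94 CPM in the VNS libraries and 47.6, 1.54 and 1.39 CPM in the 3 controls (log2 fold change -4.37, SE 1.29, adjusted p = 0.40). Its control level thus rests on control library 1, where Nr4a2 was at 8.96 CPM, far under its VNS levels. Aldh1a1, a retinaldehyde dehydrogenase of dopamine neurons, had a value of -1.36 (SE 0.37, adjusted p = 0.40), with 20.9 ± 3.53 CPM after VNS and 54.0 ± 30.5 CPM in controls. The 6 midbrain dopamine neuron markers matched, a list that shares Th and Aldh1a1 with the targets, summed to 27.0 to 32.8 CPM in VNS libraries and 253.1, 65.4 and 32.6 CPM in the 3 controls. Aldh1a1 alone gave 16.1 to 24.5 CPM of this sum in VNS libraries and 84.1, 55.0 and 23.0 CPM in the 3 controls. The part of dopamine neuron content in the values of the targets was not tested.

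Of 13 tested records of endoplasmic reticulum chaperones, which Nr4a factors have been described to regulate in mouse hippocampus, 0 passed and the median was 0.08. Dnajb9 had a value of -0.36 (SE 0.13, adjusted p = 0.40) and Dnajb11 one of 0.29 (SE 0.15, adjusted p = 0.42), both co-chaperones of Hspa5.

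In the cortex the members were counted from few reads. The labels name a TruSeq stranded kit, whose first reads are complementary to the transcript, whereas per the file header the counting kept reads in the orientation of the record. Records that overlap a record of the opposite strand, 3.79% of all, held 35.5% of cortex counts and 9.58% of hippocampal counts. Values in the cortex may thus hold reads from the other strand. No record overlaps an exon of a member there, and whether the cortex values give the members' own levels was not tested. Slc17a7, the vesicular glutamate transporter of cortical neurons, had 33 to 80 counts in VNS libraries and 40 to 82 counts in control libraries.

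Nr4a1 had 7, 4, 3 and 6 counts in VNS cortex libraries 1 to 4 and 9, 17, 12 and 12 in control libraries 1 to 4. These are 14.6 ± 5.89 CPM after VNS and 35.8 ± 4.70 CPM in controls (SD, n = 4 each). Every VNS library lay below every control library, which was so in one direction or the other for 2.29% of the records tested. The lowest VNS value, 8.08 CPM, has a 95% exact binomial interval from 1.67 to 23.6 CPM, and the lowest control value, 29.5 CPM, one from 13.5 to 56.0 CPM. The log2 fold change was -1.29 (SE 0.51, unadjusted p = 0.020) and did not pass in the edgeR fit over 3884 records (adjusted p = 0.9998). It ranged from -1.53 to -1.09 when each library was left out in turn, among the 7 such fits in which the record was tested. In the cortex fit 0.0257% of records passed, none of them a member, and 93 (2.39%) had an unadjusted p under 0.05. A two-sided exact permutation test gave p = 0.029, the smallest that 70 splits allow.

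Nr4a2 had 0, 0, 0 and 5 counts in VNS cortex libraries 1 to 4 and 8, 10, 0 and 6 in the controls. It fell under the filter on low counts and was not tested. The 4 libraries at 0 allow up to 9.31, 8.92 and 8.08 CPM in VNS libraries 1 to 3 and 9.60 CPM in control library 3, taking 3 counts as the limit. Without the filter its log2 fold change was -2.12 (adjusted p = 0.97). A two-sided exact permutation test gave p = 0.14.

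Nr4a3 had 8, 24, 8 and 26 counts in VNS cortex libraries 1 to 4 and 12, 22, 22 and 7 in the controls. The means were 47.3 ± 27.9 CPM after VNS and 45.5 ± 21.0 CPM in controls (SD, n = 4 each), and the highest library exceeded the lowest by 3.32 times after VNS and by 3.45 times in controls. The log2 fold change was 0.06 (SE 0.49, adjusted p = 0.9998, edgeR). Its sign turned with limma-voom (-0.02) and without control library 4 (-0.18), VNS library 2 (-0.19) or VNS library 4 (-0.21).

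Whether VNS acted unequally in the 2 tissues was tested as an interaction, hippocampus minus cortex, over all 15 libraries. On the log2 scale it was 3.35 for Nr4a2 (SE 1.54, adjusted p = 0.60), 1.47 for Nr4a1 (SE 0.88, adjusted p = 0.67) and 1.26 for Nr4a3 (SE 1.08, adjusted p = 0.76, edgeR for all). In that fit 0% of 7450 records passed with edgeR and 605 (8.12%) had an unadjusted p under 0.05, while DESeq2 called 14 and limma-voom 1. Without hippocampal control library 3 all 3 members passed, at 5.17 for Nr4a2, 2.94 for Nr4a1 and 3.83 for Nr4a3, with adjusted p = 0.0062, 0.0033 and 0.00061 (edgeR). Without hippocampal control libraries 1 and 2 the values were 2.05, 0.26 and -0.18 in the same order, and none passed (adjusted p = 0.9999 for each). The tissues also differ in library type, polyA-selected in cortex and ribosome-depleted in hippocampus, and in the strand option of the counting. Neither can be told apart from tissue. The cortex values may hold reads from the other strand, and the labels do not say whether the cortex rats performed the task.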

How the data were processed

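Cortex libraries were polyA-selected and hippocampal libraries ribosome-depleted, read as 100 bp pairs, per the labels. The authors deposited raw read counts for each RefSeq transcript record. Per the file headers, featureCounts 1.4.6-p2 made them, with strand option 1 in cortex and none in hippocampus. The headers name no paired-end option, so each read of a pair may add a count: of counts from 2 to 20, 78.1% were even in hippocampus and 65.7% in cortex. Intervals and limits for counts of 0 cover counting error only and are then too narrow. The submitters' processing notes name Trimmomatic, Bowtie2, SAMtools 0.1.19 and build rn5. How alignment was set is not given in the sources used here.

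Symbols for 17339 of 18278 records came from a RefSeq table of GRCr8, used for names only. One cortex column carried an extra final letter and was assigned to the sample it otherwise matched. Records kept by filterByExpr (minimum count 10, minimum total 15) were TMM-scaled and tested with glmQLFit and glmQLFTest in edgeR 4.0.16 (R 4.3.3), two-sided, adjusted over all records of a comparison at 0.05. The SE is the log2 fold change divided by the root of F. Log2 CPM used a prior count of 2. Alternatives used DESeq2 1.42.0, limma 3.58.1 and settings listed in the closing section. The tests were checked on counts simulated with the spread typical of records at the same level. Of records with a true log2 change of 1, 15% passed in hippocampus, 41.1% in cortex and 6.38% for the difference between tissues. For a change of 2 these were 92.9%, 94.25% and 64.1%. The simulation did not use the members' own spread, nor libraries that stand apart as hippocampal control libraries 1 and 2 do. With hippocampal SEs of 0.67 for Nr4a1, 0.82 for Nr4a2 and 0.97 for Nr4a3, these shares do not hold for the members there. Genes were named by rule: the members, the 2 smallest p in hippocampus per pathway list, and the 5 nearest profiles per member. A gene named by this rule is not reported here. Members, lists and alternatives were chosen with earlier results of these data known.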

Additional observations from a re-analysis of the deposited data

Results flagged for a closer look

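Nr4a2 in VNS cortex stood out within its group, where VNS library 4 was at 13.8 CPM (5 counts) and the other 3 VNS libraries were at 0 counts. The flag rests on the gap to the next library against the range of the group. With 3 libraries at 0 counts, any count above 0 in the other library is flagged, so the flag adds nothing to the counts. For the 9 groups of 4 libraries examined for the members, the usual chance rate of about 1 in 20 does not hold at such low counts. Nr4a2 was also higher than the control mean in 4 of 4 VNS libraries in hippocampus and lower than it in 4 of 4 in cortex. The difference of the effects was 3.35 on the log2 scale and did not pass (adjusted p = 0.60, edgeR). In hippocampus control library 3 lay within the range of the VNS libraries, and in cortex 4 of 8 libraries held 0 counts.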

How the results depend on the processing

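The number of records that passed in hippocampus, 0, became 17 with DESeq2 and ranged from 0 to 1377 when each library was left out. In cortex the number, 1, became 5 with no filter, 0 with limma-voom and 2 with counts summed per symbol, and ranged from 0 to 4 over left-out libraries. For the difference between tissues, 0 became 14 with DESeq2 and 1 with limma-voom, and ranged from 0 to 244 over left-out libraries. Without hippocampal control libraries 1 and 2 the hippocampal values turned to -0.17 for Nr4a2, -0.081 for Nr4a3 and -1.01 for Nr4a1, and the difference between tissues for Nr4a3 to -0.18. Over left-out libraries Nr4a1 in hippocampus ranged from -0.23 to 1.78 and Nr4a3 in cortex from -0.21 to 0.35. Nr4a3 in cortex was at -0.023 with limma-voom. The cause was not tested. In hippocampus the direction turned in 1 of 16 settings for Nr4a2, in 1 of 16 for Nr4a3 and in 4 of 16 for Nr4a1, and each member passed in 1 setting, without control library 3. DESeq2 gave no p for Nr4a1 and Nr4a3 in hippocampus. Left-out cortex libraries moved the difference for Nr4a2 to as much as 12.6, without VNS library 4, where every VNS library left holds 0 counts, so that the value follows from the prior count. No paired analysis was possible because the labels give no replicate numbers shared between groups. Low counts limit the cortex, where the members held 70, 29 and 129 counts for Nr4a1, Nr4a2 and Nr4a3 over all 8 libraries. The part of sequencing depth and of the strand option in these low counts was not tested.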

Other observations

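Partners and corepressors of the Nr4a family gave 13 tested records in hippocampus, of which 0 passed (median log2 fold change 0.23). Hdac2, a histone deacetylase, had a value of 0.40 (SE 0.18, adjusted p = 0.40, edgeR).

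Other orphan nuclear receptors gave 13 tested records in hippocampus, of which 0 passed (median -0.06). Nr1d2, a repressor of the circadian clock, had 86.1, 100.8, 73.6 and 91.8 CPM in VNS libraries 1 to 4 and 141.4, 147 and 116.9 CPM in the 3 controls. All VNS libraries lay below all controls, control library 3 included (log2 fold change -0.62, SE 0.15, adjusted p = 0.40, edgeR), as groups were free of overlap for 9.28% of records. Esrrg, an estrogen-related receptor, had 14.4 to 22.3 CPM in VNS libraries and 69.7, 41.5 and 18.5 CPM in the controls, so its groups overlap (-1.32, SE 0.39, adjusted p = 0.40).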
